A study of Homo sapiens with 24 samples.

Results

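The 8 genes described here are SREBF2, which encodes the transcription factor SREBP2, INSIG1, which holds that factor back, and 6 genes for enzymes of the cholesterol pathway, HMGCS1, MVD, FDFT1, SQLE, LSS and EBP. They were taken by gene symbol from both deposited expression tables and all 8 were found in each, among 61541 genes at 48 h and 19836 genes at 72 h. RNA-seq had been done on U2932 cells, an established line of human lymphoma (diffuse large B-cell), with reagents directed at MYC. PNA2, a gamma peptide nucleic acid (a DNA analogue with a peptide-like backbone), was given at a labelled dose of 8 mM, a unit that is in doubt, with 4 libraries at 48 h and 5 at 72 h. An siRNA was electroporated at 500 nM, with 4 libraries at 48 h. PBS controls had 6 libraries at 48 h and 5 at 72 h, and all groups were labelled wild type. No electroporated control was labelled, so the siRNA and the electroporation cannot be told apart. The siRNA libraries' entries for the line differ from U2932 in the last digit although the treatment text names it for them, and the labelled extraction text names 48 h for every library. The labels do not say that replicates were separate cultures, so p-values measure the spread between libraries, which may be technical.

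Cells build cholesterol from acetyl-CoA through mevalonate, squalene and lanosterol. SREBP2 is made as a membrane protein of the endoplasmic reticulum. When sterols are low, SCAP carries it to the Golgi, where it is cut, and the freed part enters the nucleus and switches on genes of the pathway. When sterols are high, INSIG proteins keep SCAP and SREBP2 in place, and INSIG1 is itself a target of the factor, as is SREBF2. Proliferating B-cell lymphoma cells need sterols for membranes and isoprenoids for protein anchors.

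MYC, the intended target, was checked first. At 48 h its depth-scaled values were 7219, 7285, 7856 and 8938 in PNA2 libraries, 3603, 3968, 4185 and 3609 in siRNA libraries, and between 5327 and 7648 in PBS libraries, with a median of 6880. MYC was lower in siRNA libraries (log2 change -0.82, SE 0.11, limma adjusted p = 0.000379). In the libraries labelled PNA2 it was not lower (log2 change 0.24, adjusted p = 0.106 by limma), and this change passed the threshold under 4 of 19 alternatives, upward in each. At 72 h the change in PNA2 libraries was -0.18 (SE 0.45, adjusted p = 0.794 by limma).

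Library totals ran from 14.9 to 16.0 M in PNA2, 12.6 to 16.2 M in siRNA and 11.1 to 14.5 M in PBS libraries at 48 h, and from 11.3 to 13.7 M in PNA2 and 8.2 to 13.3 M in PBS libraries at 72 h. The 48 h libraries form 2 batches, which were read from tied values. Batch A holds PNA2 replicates 1 and 2, all siRNA libraries and PBS replicates 1, 2 and 4, and batch B holds PNA2 replicates 3 and 4 and the other PBS libraries. PNA2 replicate 2 at 48 h stood apart from its group by 0.361 (root mean square log2 deviation over genes), against 0.0731 to 0.224 in the other 48 h libraries, and PNA2 replicate 3 at 72 h by 0.346, against 0.197 to 0.267. The share of values from mitochondrial genes was 5.36% ± 0.575 in PNA2 (SD, n = 4), 2.24% ± 0.132 in siRNA (n = 4) and 2.41% ± 0.57 in PBS libraries (n = 6) at 48 h, and 7.30% ± 1.01 in PNA2 and 4.35% ± 0.320 in PBS libraries (n = 5 each) at 72 h. Its part in the results was not tested. All 5 B-cell markers examined (CD79A, CD79B, MS4A1, PAX5 and CD22) averaged 10 or more in every group. They were not even across libraries. In PNA2 replicate 2 at 48 h CD22 was at 524, against 2797 to 2897 in the other PNA2 libraries at 48 h. MS4A1 was at 6391 there, against 15060 to 15426, and PAX5 at 5430, against 8762 to 9202. CD79B was at 1618, against 2211 to 2354, and CD79A at 13689, against 14131 to 14552. The 4 T and NK cell markers summed to at most 6.96 in any 48 h library and 23.4 at 72 h, with CD3D and CD2 under 1 in every library. The 4 myeloid markers summed to at most 23.7 at 48 h and 45.0 at 72 h, and the 4 erythroid markers to at most 5.66 and 10.0. The 4 markers of stroma and epithelium summed to between 209 and 468 in PNA2, 228 and 318 in siRNA and 166 and 257 in PBS libraries at 48 h, mostly from EPCAM, and to between 93.3 and 153 in PNA2 and 104 and 136 in PBS libraries at 72 h. In PNA2 replicate 4 at 48 h the collagen genes COL1A1, COL1A2 and COL3A1 were at 153, 48.8 and 27.5, against at most 22.9, 4.75 and 1.93 in the other 48 h libraries. These are deposited values. Without that library SREBF2 stayed called higher and MVD, LSS and EBP lower than in PBS libraries.

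The promoter sequences of SREBF2 and INSIG1 are shown because each holds a motif found in none of the other windows examined. Those of HMGCS1 and EBP are shown as enzyme genes that hold CCAAT alone and were higher in PNA2 libraries at 72 h. MVD and LSS also hold CCAAT alone and were not called at 72 h. A link between a motif and a change was not tested. The letters are the 250 bases before the RefSeq start (GRCh38.p14), 5′ to 3′ on the strand of the gene, with motif matches in capitals. The motifs searched on both strands were the sterol regulatory element TCACNCCAC, to which SREBP2 binds, the E-box CACGTG, which MYC with MAX can bind, and CCAAT, the box of the factor NF-Y, written ATTGG where it lies on the other strand. They do not overlap one another in these windows.
SREBF2 promoter (chr22:41832855-41833104, + strand): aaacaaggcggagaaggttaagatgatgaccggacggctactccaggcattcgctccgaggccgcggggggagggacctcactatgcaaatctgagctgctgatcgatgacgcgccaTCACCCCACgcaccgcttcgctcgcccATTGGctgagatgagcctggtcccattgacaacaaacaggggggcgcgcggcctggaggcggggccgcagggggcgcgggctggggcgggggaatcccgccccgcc
INSIG1 promoter (chr7:155297628-155297877, + strand): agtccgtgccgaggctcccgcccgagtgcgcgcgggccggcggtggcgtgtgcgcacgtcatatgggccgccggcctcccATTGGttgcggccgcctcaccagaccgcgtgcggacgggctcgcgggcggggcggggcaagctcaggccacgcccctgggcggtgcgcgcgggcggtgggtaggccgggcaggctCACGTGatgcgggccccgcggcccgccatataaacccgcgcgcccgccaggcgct
HMGCS1 promoter (chr5:43313413-43313662, - strand): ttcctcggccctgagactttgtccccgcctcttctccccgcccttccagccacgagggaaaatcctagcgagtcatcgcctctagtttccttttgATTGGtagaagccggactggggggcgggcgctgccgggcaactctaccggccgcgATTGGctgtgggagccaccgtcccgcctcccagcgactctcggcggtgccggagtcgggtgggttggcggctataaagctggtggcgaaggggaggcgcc
EBP promoter (chrX:48521558-48521807, + strand): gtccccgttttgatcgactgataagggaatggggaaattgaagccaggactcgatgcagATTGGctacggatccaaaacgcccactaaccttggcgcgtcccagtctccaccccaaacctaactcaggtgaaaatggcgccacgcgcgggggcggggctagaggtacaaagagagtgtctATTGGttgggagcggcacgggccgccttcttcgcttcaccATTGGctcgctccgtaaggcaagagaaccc

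The table of RefSeq promoters held 6 of the 8 genes with a window that could be shown. The sterol regulatory element was in the SREBF2 window, 133 to 125 bases before the start, and in none of the other 5 genes; 0.883% of 35116 RefSeq promoter windows hold it. The E-box was in the INSIG1 window, 55 to 50 bases before the start, and 6.34% of windows hold it. CCAAT was in a window of each of the 6 genes, against 32.0% of all windows, with 3 matches in MVD and EBP, 2 in HMGCS1 and 1 in SREBF2, INSIG1 and LSS. For HMGCS1, the other RefSeq start had no match to any of the 3 motifs. A match is a string of letters and no measured binding. Only these exact letters were searched, so a window without a match may hold other forms of a motif.

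On GRCh38, with GENCODE 29 positions, SREBF2 spans 41833079 to 41907308 of chromosome 22, INSIG1 155297776 to 155310235 of chromosome 7, HMGCS1 43289395 to 43313512 of chromosome 5 and MVD 88651935 to 88663161 of chromosome 16. FDFT1 spans 11795573 to 11839309 and SQLE 124998497 to 125022283 of chromosome 8, LSS 46188141 to 46228824 of chromosome 21 and EBP 48521158 to 48528716 of chromosome X. The EBP promoter window shown lies wholly within the EBP span, since the RefSeq start used is downstream of the GENCODE start. The SREBF2, INSIG1 and HMGCS1 windows shown lie partly within the spans of their genes. The sources used here do not say whether counting used the strand. SREBF2, HMGCS1, FDFT1 and LSS overlap an annotated gene on the opposite strand, so their reads are uncertain to that extent. The partner SREBF2-AS1 was between 11.2 and 28.2 in the 48 h table, where the lowest SREBF2 value was 5009.7 (PBS replicate 2).

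Per kilobase of exon, SREBF2 was the highest of the 8 genes in every group. At 48 h it had 1031 ± 137 in PNA2 libraries (SD, n = 4), 797 ± 32.0 in siRNA libraries (n = 4) and 833 ± 42.1 in PBS libraries (n = 6), all as depth-scaled value per kilobase. In the 48 h PBS libraries INSIG1 came next, at 636 ± 110.0, then SQLE at 436 ± 32.2 and HMGCS1 at 419 ± 69.2. SQLE and HMGCS1 overlapped, as did INSIG1 (from 482) and HMGCS1 (up to 525). MVD at 309 ± 15.7 and LSS at 177 ± 11.0 followed, then EBP at 115 ± 12.3 and FDFT1 at 111 ± 14.6, which overlapped. In the 72 h PBS libraries SREBF2 had 868 ± 54.7 normalized counts per kilobase (n = 5). FDFT1 at 476 ± 30.1, SQLE at 442 ± 19.8, LSS at 415 ± 27.0, INSIG1 at 355 ± 108, MVD at 276 ± 16.0 and HMGCS1 at 273 ± 29.6 followed, each overlapping its neighbour in that order, and EBP was lowest at 166 ± 24.0. FDFT1 was thus the lowest of the 8 genes in PBS libraries at 48 h and second to SREBF2 at 72 h. The tables were made separately, so no level is compared between them, and the cause of the difference in rank was not tested.

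After 48 h of PNA2, SREBF2 was higher and 3 genes of the pathway were lower than in PBS libraries. The lower genes were MVD, whose enzyme makes isopentenyl diphosphate, the building block of isoprenoids, LSS, which closes the sterol ring to give lanosterol, and EBP, a sterol isomerase of the late pathway. HMGCS1, FDFT1, SQLE and INSIG1 did not pass the test. Thus 1 of 8 genes was called higher, against 8.34% of the 14073 genes tested, and 3 of 8 lower, against 8.13% (limma, Benjamini-Hochberg adjusted p below 0.05). The values of 4 of 8 genes did not overlap between PNA2 and PBS libraries, which held for 10.0% of genes tested. The median log2 change of the 8 genes was -0.15, against 0.0005 for all genes tested. In bulk RNA, fewer cells with a transcript and less transcript per cell cannot be told apart.

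SREBF2 had depth-scaled values of 6868, 9279, 7603 and 7423 in PNA2 libraries, against 5860 to 6706 in PBS libraries, with a median of 6321. All 4 PNA2 libraries lay above all 6 PBS libraries, and the highest was replicate 2. The log2 change was 0.30 (SE 0.07), a fold of 1.23 with a 95% interval of 1.10 to 1.37 (adjusted p = 0.0140 by limma). Within batch A the change was 0.28 (adjusted p = 0.114) and within batch B 0.32 (adjusted p = 0.0163). Without PNA2 replicate 2 it was 0.22 (adjusted p = 0.0132).

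INSIG1, the brake on SREBP2 processing, had 1919, 2550, 2055 and 1905 in PNA2 libraries, against 1758 to 2803 in PBS libraries, with a median of 2219. The groups overlapped, and the log2 change was -0.13 (SE 0.11, adjusted p = 0.443 by limma).

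HMGCS1, which makes HMG-CoA early in the pathway, had 1768, 2547, 1938 and 2000.1 in PNA2 libraries, against 1645 to 2469 in PBS libraries, with a median of 1847. The groups overlapped, and the log2 change was 0.07 (95% interval -0.15 to 0.29). It was -0.01 within batch A and 0.15 within batch B. MVD had 1238, 1294, 1170.0 and 1161 in PNA2 libraries, against 1346 to 1575 in PBS libraries, with a median of 1451. All PNA2 libraries were below all PBS libraries, with a log2 change of -0.26 (SE 0.06) and a fold of 0.83, 95% interval 0.76 to 0.91 (adjusted p = 0.00845 by limma). The MVD change was -0.20 within batch A (adjusted p = 0.0887) and -0.32 within batch B (adjusted p = 0.0272).

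FDFT1, the squalene synthase that commits the pathway to sterols, had 494, 498, 551 and 503 in PNA2 libraries, against 481 to 695 in PBS libraries, with a median of 567. SQLE, which oxidises squalene, had 1648, 2122, 1794 and 1739 in PNA2 libraries, against 1675 to 2041 in PBS libraries, with a median of 1848. Both overlapped between groups, with log2 changes of -0.16 (95% interval -0.41 to 0.10) for FDFT1 and -0.04 (-0.20 to 0.12) for SQLE.

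LSS had 1089, 700.1, 1102 and 1078 in PNA2 libraries, against 1185 to 1378 in PBS libraries, with a median of 1273. PNA2 replicate 2 was far below the other 3, which were themselves below all PBS libraries. The log2 change was -0.39 (SE 0.10), a fold of 0.76 with a 95% interval of 0.66 to 0.89 (adjusted p = 0.0179 by limma), and without PNA2 replicate 2 it was -0.23 (adjusted p = 0.0104). It was -0.56 within batch A (adjusted p = 0.0369) and -0.23 within batch B (adjusted p = 0.113). EBP had 210.0, 202, 208 and 180 in PNA2 libraries, against 223 to 307 in PBS libraries, with a median of 278. All PNA2 libraries were below all PBS libraries, with a log2 change of -0.46 (SE 0.11) and a fold of 0.72, 95% interval 0.62 to 0.85 (adjusted p = 0.00904 by limma). It was -0.37 within batch A (adjusted p = 0.133) and -0.56 within batch B (adjusted p = 0.0154).

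An exact two-sided permutation test over libraries, within batches, gave p = 0.01 for SREBF2, MVD, LSS and EBP, the smallest its 100 arrangements can give, and an adjusted p of 0.0343 over the 24 such tests made here. The 4 calls held when any 1 library was left out. The deposited 48 h values are not scaled for depth. Without scaling, the median of all genes moved by 0.19 on the log2 scale, SREBF2 stayed called higher (0.50) and the changes of MVD (-0.07), LSS (-0.20) and EBP (-0.27) lost their calls. In the unscaled values MVD, LSS and EBP also overlapped between PNA2 and PBS libraries, and SREBF2 did not.

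**Figure D1:**
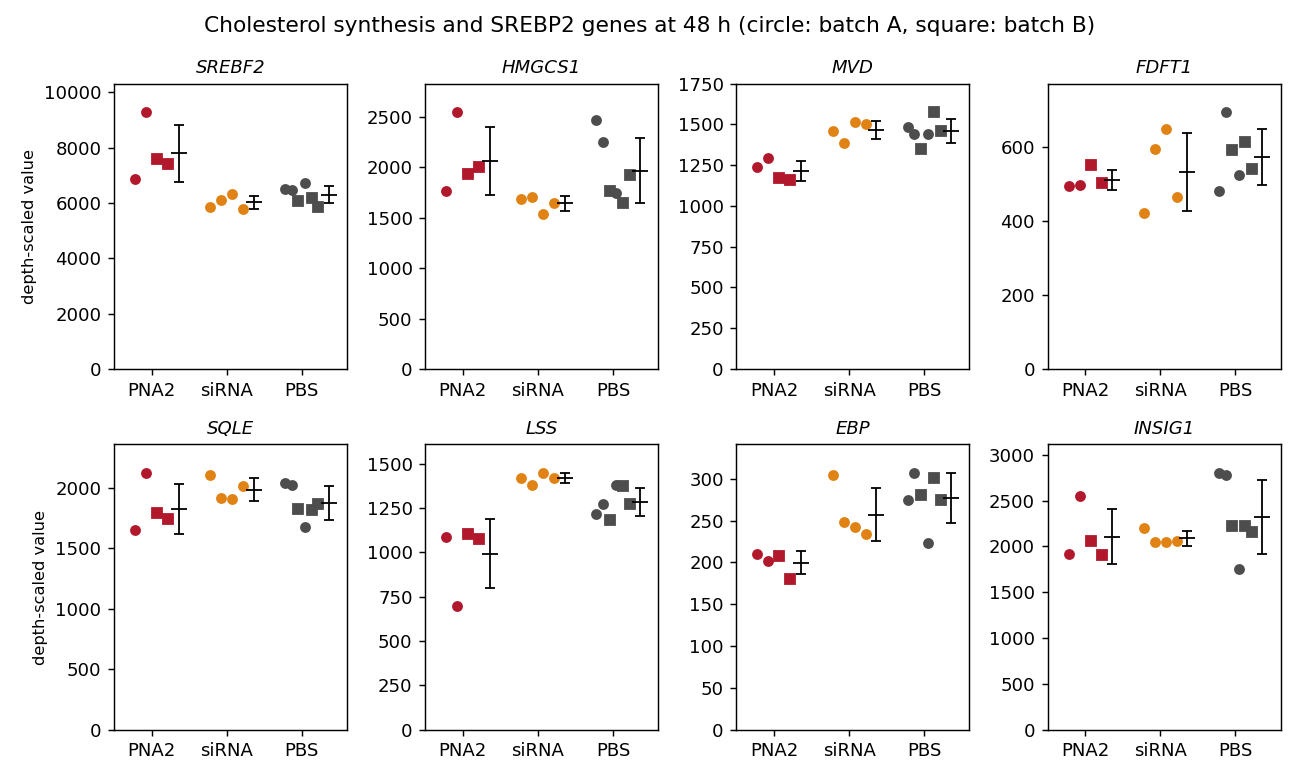
Depth-scaled values of the 8 genes at 48 h in PNA2, siRNA and PBS libraries (1 point per library, with mean and SD; circles are batch A and squares batch B). All 4 PNA2 libraries lie above the PBS libraries for SREBF2 and below them for MVD, LSS and EBP.

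**Figure D2:**
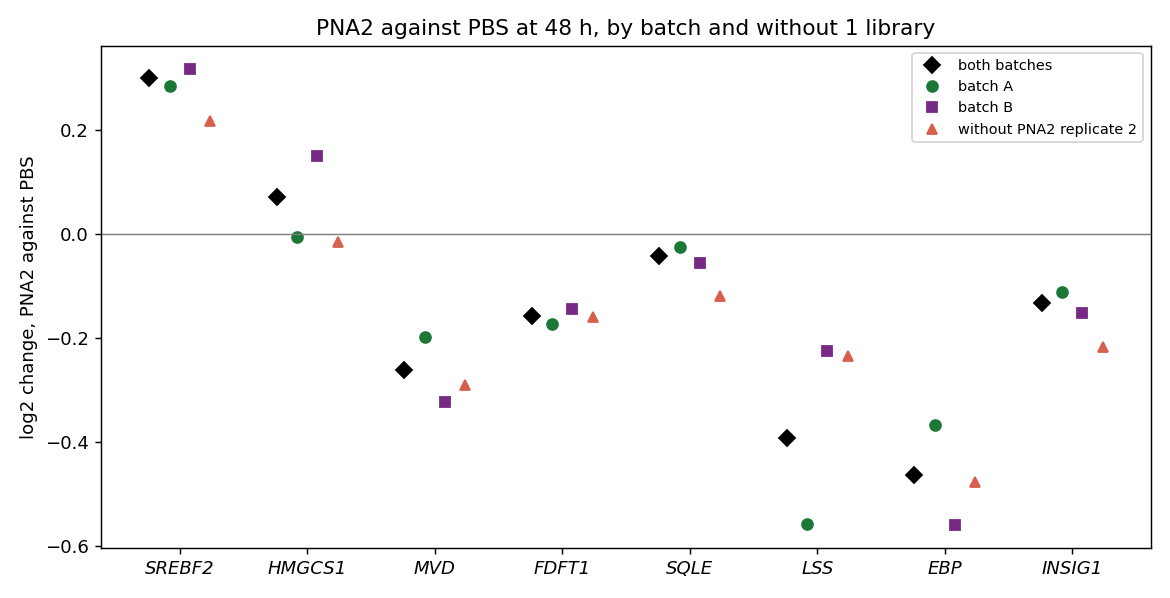
Log2 change of each gene in PNA2 against PBS libraries at 48 h, for the batches together and each alone, and with PNA2 replicate 2 left out. SREBF2, MVD, LSS and EBP keep their direction in all 4 sets, and HMGCS1 lies on both sides of 0.

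After 72 h of PNA2, SREBF2, HMGCS1, FDFT1 and EBP were higher than in PBS libraries and no gene of the 8 was called lower. MVD, SQLE, LSS and INSIG1 did not pass the test. The count was 4 of 8 genes higher, against 12.1% of 11985 genes tested, and 0 of 8 lower, against 11.7% (limma). edgeR and DESeq2 on the recovered whole reads also called 4 higher and 0 lower, and at an unadjusted p below 0.05 the same 4 genes passed in limma. Values of 3 of 8 genes did not overlap, against 19.2% of genes tested. The median log2 change of the 8 genes was 0.18, against -0.005 for all genes tested.

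SREBF2 had 9428, 8371, 8013, 7836 and 8088 normalized counts in PNA2 libraries, against 6595, 6898, 6567, 5873 and 6868 in PBS libraries. Every PNA2 library was above every PBS library, with a log2 change of 0.35 (SE 0.07) and a fold of 1.27, 95% interval 1.15 to 1.41 (adjusted p = 0.00464 by limma). After quantile normalization the change was 0.20 and missed the threshold (adjusted p = 0.0564), the only alternative of 17 in which it did. INSIG1 had 1688, 1261, 1018, 1317 and 1148 normalized counts in PNA2 libraries, against 1660.1, 957, 1140, 1779 and 949 in PBS libraries. Its libraries were spread widely in both groups, and the log2 change of 0.02 had a 95% interval of -0.41 to 0.45.

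HMGCS1 had 1743, 1849, 1511, 2202 and 1893 normalized counts in PNA2 libraries, against 1313, 1131, 1493, 1299 and 1189 in PBS libraries. The groups did not overlap, although PNA2 replicate 3 was close to the highest PBS library. The log2 change was 0.51 (SE 0.11), a fold of 1.43 with a 95% interval of 1.22 to 1.67 (adjusted p = 0.00586 by limma). MVD had 1329, 1412, 1742, 1215 and 1143 normalized counts in PNA2 libraries, against 1313, 1348, 1382, 1185 and 1282 in PBS libraries. It overlapped, with a log2 change of 0.06 (95% interval -0.17 to 0.29).

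FDFT1 had 3476, 2927, 3216, 2734 and 2962 normalized counts in PNA2 libraries, against 2466, 2310.4, 2732, 2460.1 and 2407 in PBS libraries. The lowest PNA2 library lay just above the highest PBS library, with a log2 change of 0.30 (SE 0.08) and a fold of 1.24, 95% interval 1.10 to 1.39 (adjusted p = 0.0143 by limma). SQLE, the next enzyme, had 1643 to 1966 normalized counts in PNA2 libraries, with a median of 1929.9, and 1809 to 2019 in PBS libraries, with a median of 1924. Its log2 change was -0.04 (95% interval -0.19 to 0.11).

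LSS had 2784 to 3247 normalized counts in PNA2 libraries and 2863 to 3334 in PBS libraries, with a log2 change of -0.005 (95% interval -0.15 to 0.14). EBP had 557, 568.4, 619.5, 729 and 463 normalized counts in PNA2 libraries, against 442, 474, 391, 353 and 338 in PBS libraries. PNA2 replicate 5 lay below PBS replicate 2, and the other 4 PNA2 libraries were above all PBS libraries. The log2 change was 0.55 (SE 0.13), a fold of 1.47 with a 95% interval of 1.20 to 1.79 (adjusted p = 0.0116 by limma). The exact two-sided permutation test gave p = 0.00794 for SREBF2, HMGCS1 and FDFT1, the smallest that 252 arrangements can give, and p = 0.0159 for EBP, with adjusted p-values of 0.0343 and 0.0476. The 4 calls held when any 1 library was left out.

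**Figure D3:**
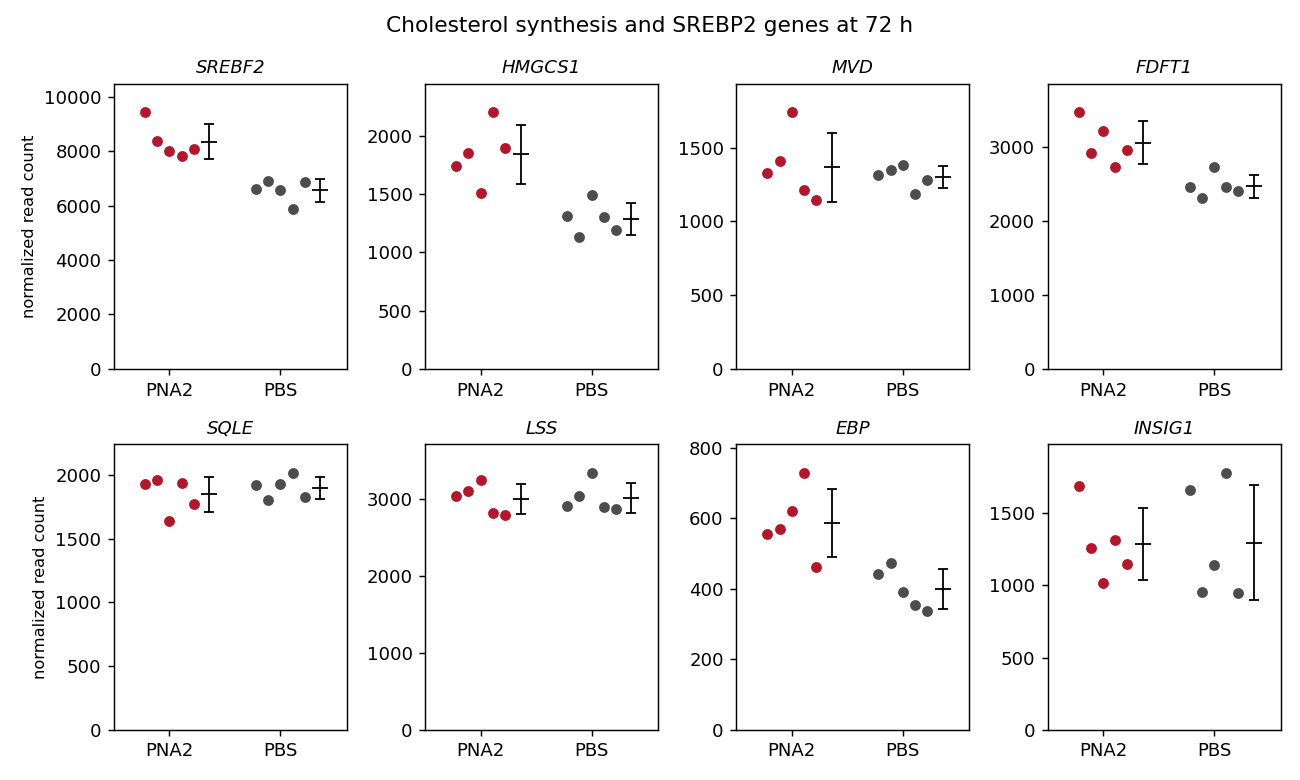
Normalized read counts of the 8 genes at 72 h in PNA2 and PBS libraries (1 point per library, with mean and SD). The 5 PNA2 libraries lie above the 5 PBS libraries for SREBF2, HMGCS1 and FDFT1, and 4 of 5 do for EBP.

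With the siRNA, 7 of the 8 genes did not pass the test and HMGCS1 was at the threshold. No gene was called higher, against 9.05% of genes tested, and 1 of 8 was called lower, against 8.16% (limma). At an unadjusted p below 0.05, HMGCS1 alone passed. HMGCS1 had 1681, 1704, 1535 and 1645 in siRNA libraries, against 1645 to 2469 in PBS libraries, with a median of 1847. The log2 change was -0.35 (SE 0.12, adjusted p = 0.0497 by limma), and the call was lost in 16 of 18 alternatives. Among these are the omission of any 1 library other than PBS replicate 4, where the change lay between -0.37 and -0.24, and the comparison within batch A (-0.36, adjusted p = 0.0933). The exact permutation test within batch A gave p = 0.0286, the smallest its 35 arrangements can give, with an adjusted p of 0.0686.

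LSS had 1422, 1382, 1448 and 1421 in siRNA libraries, against 1185 to 1378 in PBS libraries, and it was the 1 gene of 8 whose groups did not overlap, which held for 15.5% of genes tested, although in the unscaled values it did overlap. Its log2 change was 0.21 (95% interval -0.04 to 0.45, adjusted p = 0.230 by limma), and 0.43 (adjusted p = 0.0437) without depth scaling. SREBF2 had 5851, 6113, 6318 and 5797 in siRNA libraries, against 5860 to 6706 in PBS libraries, with a log2 change of -0.12 (95% interval -0.29 to 0.06). INSIG1 had 2205, 2044, 2048 and 2055 in siRNA libraries, against 1758 to 2803 in PBS libraries. Its log2 change was -0.20 (95% interval -0.47 to 0.06), and -0.35 (adjusted p = 0.0180 by limma) without PBS replicate 4. The changes of MVD, FDFT1, SQLE and EBP lay between -0.09 and 0.05, with intervals that included 0. All siRNA libraries are in batch A and the authors' adjustment was made across batches, so part of an siRNA difference and the batch adjustment cannot be told apart. With the batches aligned on their controls, HMGCS1 changed by -0.34 (adjusted p = 0.0587) and LSS by 0.21.

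Set directly against the siRNA libraries, the PNA2 libraries at 48 h had higher SREBF2 and HMGCS1 and lower LSS, MVD and EBP. The counts were 2 of 8 higher, against 11.9% of genes tested, and 3 of 8 lower, against 11.9% (limma). The values of these 5 genes did not overlap between the groups, which held for 27.6% of genes tested, although in the unscaled values HMGCS1 and MVD did overlap. LSS differed by -0.60 on the log2 scale (SE 0.12, adjusted p = 0.00262) and SREBF2 by 0.42 (SE 0.09, adjusted p = 0.00343). Both calls held when any 1 library was left out, but the LSS difference was -0.39 without PNA2 replicate 2. HMGCS1 differed by 0.42 (SE 0.12, adjusted p = 0.0234), but the call was lost without PNA2 replicate 2 (0.28), siRNA replicate 3 (0.39) or siRNA replicate 4 (0.40). MVD differed by -0.25 (adjusted p = 0.0186), a call lost without siRNA replicate 3 (-0.23). EBP differed by -0.37 (adjusted p = 0.0455), a call lost without PNA2 replicate 4 (-0.35) or siRNA replicate 1 (-0.29), 2 (-0.38) or 3 (-0.40). FDFT1, SQLE and INSIG1 had changes of -0.07, -0.09 and 0.07. This comparison and the other 48 h ones share libraries, so they are not independent of each other.

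**Figure D4:**
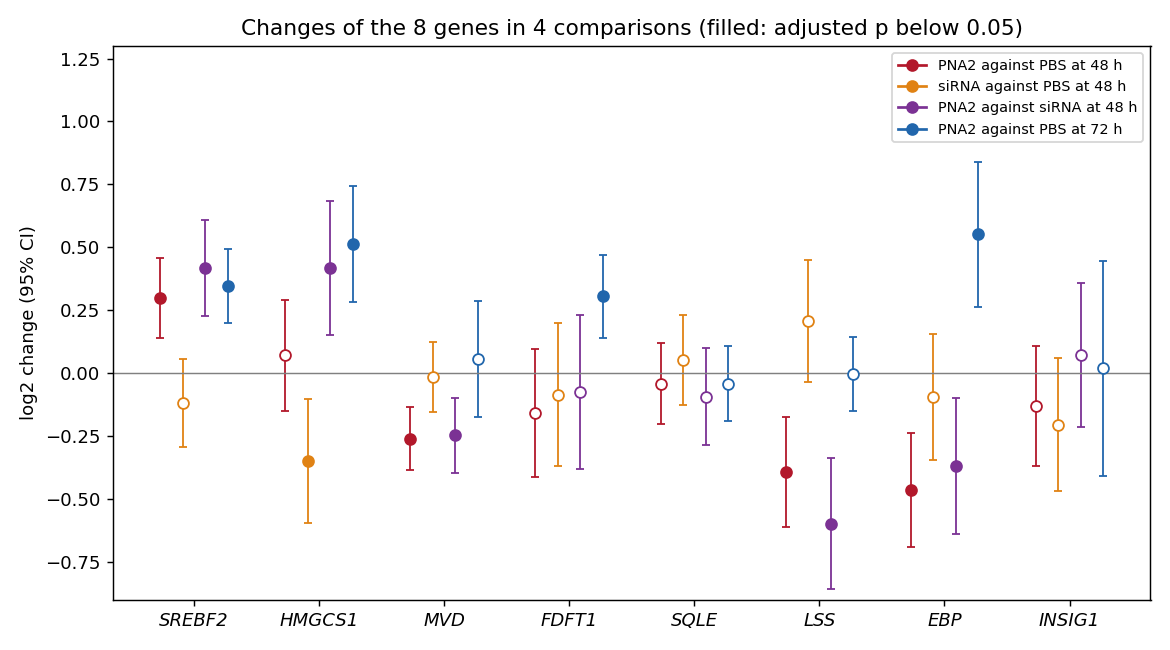
Log2 change with its 95% interval for each of the 8 genes in PNA2 against PBS at 48 h, siRNA against PBS at 48 h, PNA2 against siRNA at 48 h, and PNA2 against PBS at 72 h (filled points, adjusted p below 0.05 by limma). EBP is at -0.46 in PNA2 at 48 h and 0.55 at 72 h, and SREBF2 at 0.30 and 0.35.

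Counts in the lists of related genes stand beside the shares of all genes called, which were 8.34% higher and 8.13% lower in PNA2 libraries at 48 h, 12.1% and 11.7% at 72 h, and 9.05% and 8.16% with siRNA. Of the 14 other cholesterol synthesis genes tested, 0 were called higher and 1 lower at 48 h, LBR, a sterol reductase that is also a receptor of the nuclear lamina (log2 change -0.30), and at 72 h 0 were higher and 1 lower, SC5D, a late desaturase (-0.46), which at this list size is near the shares over all genes. The SC5D call was lost without PNA2 replicate 1 (-0.41) and without PBS replicate 1 (-0.41). With siRNA, 2 of the 14 genes were lower and 0 higher, DHCR7, the last reductase of the pathway (-0.45), and LBR (-0.29).

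Of 6 genes for handling of the SREBP factors, 0 were higher in PNA2 libraries at either time and 1 was lower at each. SREBF1, the related factor that mainly serves fatty acid synthesis, was lower at 48 h in PNA2 (-0.58, adjusted p = 0.00247) and siRNA libraries (-0.59, adjusted p = 0.00418), both by limma. RNF139, a ubiquitin ligase, was lower at 72 h (-0.48). With siRNA, MBTPS1, the first protease that cuts SREBPs, was higher (0.56) and SCAP lower (-0.26). Of 7 uptake and traffic genes tested, SCARB1, a lipoprotein receptor, was lower in PNA2 (-0.27) and siRNA libraries (-0.40) at 48 h, and SOAT1, which esterifies cholesterol, was higher with siRNA (0.32). At 72 h NPC2, which moves cholesterol out of lysosomes, was higher (0.75), and STARD4, a sterol carrier (-0.64), and MYLIP, a ubiquitin ligase induced by LXR (-0.53), were lower.

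Of 4 tested genes of sterol sensing by LXR and efflux, ABCG1, a cholesterol exporter, was lower at 48 h in PNA2 (-1.003) and siRNA libraries (-0.80), and NR1H2, which encodes an LXR, was higher at 72 h (0.60). Of 11 fatty acid synthesis genes, FASN, the fatty acid synthase, was lower in PNA2 libraries at 48 h (-0.50) and 72 h (-0.37) and in siRNA libraries (-0.46). In the unscaled values FASN, SREBF1 and ABCG1 overlapped PBS libraries in both PNA2 and siRNA groups at 48 h. So did LBR and SCARB1 in both groups, ACSS2 with PNA2, and SCD, DHCR7, ACACA and SCAP with siRNA. In the depth-scaled values LBR still overlapped PBS libraries in both groups. There SCARB1 and ACSS2 with PNA2, and ACACA and SCAP with siRNA, overlapped them as well. The FASN and ABCG1 calls in PNA2 libraries at 48 h were each lost in 1 of 19 alternatives. With siRNA the FASN, SREBF1 and SCARB1 calls were each lost in 1 of 18. SREBF1 in PNA2 libraries kept its call throughout. Without depth scaling, 167 of all genes tested were lower at 48 h in PNA2 and 74 in siRNA libraries. ELOVL6, an elongase, was higher at 48 h (0.40) and lower at 72 h (-0.27) in PNA2 libraries, and the difference between times was not tested. ACSS2, an acetyl-CoA synthetase, was lower in PNA2 (-0.81) and higher in siRNA libraries (1.53), and differed between them by -2.34 (adjusted p = 1.85e-05 by limma). LPIN1, a phosphatidate phosphatase, was higher in PNA2 (0.57) and siRNA libraries (0.73). Without PNA2 replicate 2 the PNA2 changes against PBS were -0.52 for ACSS2 and 0.38 for LPIN1, both still called. Over the 19 alternatives, the PNA2 calls of ACSS2 and ELOVL6 at 48 h were each lost in 3. The LPIN1 call was lost in 2 of 19. With siRNA the ACSS2 call was lost in 1 of 18. SCD, a desaturase, was lower with siRNA (-0.78), as was ACACA, an acetyl-CoA carboxylase (-0.41). Of 7 isoprenoid branch genes, COQ2, of ubiquinone synthesis, was the only one called, higher at 72 h (0.31). Set against siRNA libraries, only the called genes with the smallest adjusted p are named. PNA2 libraries were higher in SCD (0.71), DHCR7 (0.44) and ELOVL6 (0.41) and lower in MBTPS1 (-0.71) and SOAT1 (-0.41). The DHCR7 call was lost without PNA2 replicate 2 (0.26), without siRNA replicate 1 (0.40) and within batch A (0.36). The ELOVL6 call was lost without PNA2 replicate 2 (0.32) and the SOAT1 call without PNA2 replicate 1 (-0.31). These are not the only settings that removed a call. Of 16 alternatives, the DHCR7 call was lost in 6, SOAT1 in 4, ELOVL6 in 3 and SCD in 2. Over all 49 tested genes of these lists, 2 were higher and 6 lower in PNA2 libraries at 48 h, and 3 higher and 6 lower at 72 h. With siRNA, 4 were higher and 9 lower. Of all genes tested, 16.5%, 23.8% and 17.2% were called in either direction in these comparisons. In PNA2 against siRNA libraries, 4 of the 49 were higher and 5 lower, beside 23.8% of all genes tested called in either direction.

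**Figure D5:**
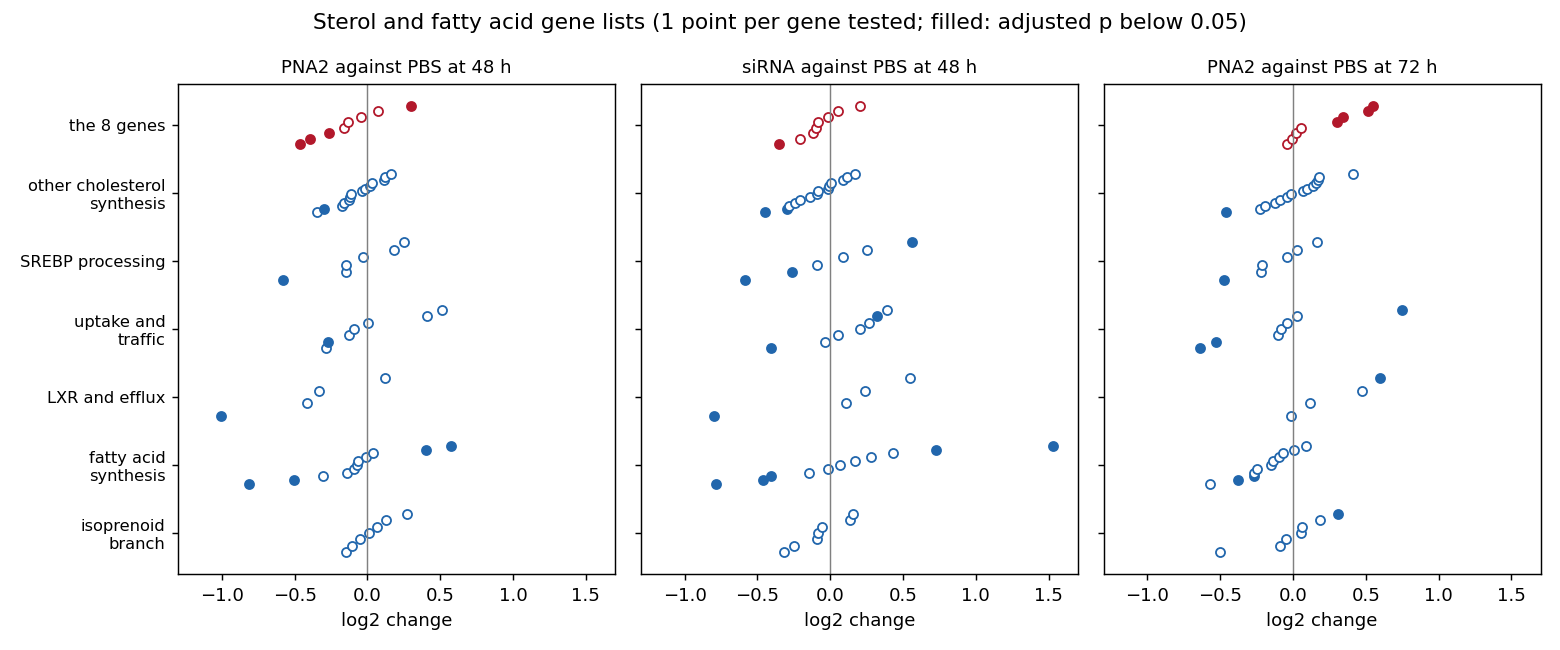
Log2 change of each tested gene, by list, in PNA2 against PBS at 48 h, siRNA against PBS at 48 h and PNA2 against PBS at 72 h (filled points, adjusted p below 0.05 by limma). The other 14 cholesterol synthesis genes hold 1, 2 and 1 called genes in the 3 panels, all of them lower.

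The 8 genes did not vary as 1 block. Over the 14 libraries at 48 h, with batch means removed, the strongest pairwise Pearson correlations of log2 values were 0.77 between MVD and EBP and -0.90 between SREBF2 and LSS. Over the 10 libraries at 72 h the highest was 0.84, between SREBF2 and FDFT1, and the lowest -0.54, between MVD and SQLE. PNA2 replicate 2 had both the highest SREBF2 value (9279) and the lowest LSS value (700.1) of all 48 h libraries. The correlation of SREBF2 and LSS without that library was not computed. All these correlations describe libraries that share treatment groups, so treatment and the likeness of profiles cannot be told apart. Outside the 8 genes, those with the profile most like the mean of the 8 were ABCG1 (r = 0.87), NOMO2 (0.83), SREBF1 (0.83), HMX2 (0.81) and ATP1B3 (0.81) over the 14 libraries at 48 h. Over the 10 libraries at 72 h they were CLTB (0.95), MRPL44 (0.94), STK32C (0.94), ALG14 (0.94) and DBP (0.93), and none of the 5 was among those at 48 h. These genes were picked for the highest r among all genes tested, and no baseline for such a pick was computed. Not all of the 8 genes followed their own mean. Against the mean of the others, r was -0.42 for SREBF2 and -0.18 for LSS at 48 h, and -0.14 for SQLE at 72 h.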

How the data were processed

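The 72 h table holds normalized signal, read counts over a size factor per library set by the authors, as deposited; whole reads came back for 100% of values within 0.01, with factors from 0.73 to 1.187. The 48 h table holds a score, counts that the authors adjusted by batch and did not scale for depth, as deposited; 5099 genes have values below 0. The submitters' processing notes name HISAT2 2.2.1, HTSeq 0.11.0, SAMtools 1.7, Trimmomatic and DESeq2, and the build GRCh38. Batches were read from ties among 6826 low genes, with 25.3% to 40.6% of values equal within a batch and 0% between.

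At 48 h negative values were set to 0 and libraries scaled by TMM (edgeR 4.0.16). limma 3.58.1 with a trend was fitted in R 4.3.3 to log2(value + 1), with group and batch at 48 h and group alone at 72 h, on genes at 10 or more in at least 4 (48 h) or 5 (72 h) libraries, with Benjamini-Hochberg adjustment over all genes tested at 0.05. Fold changes on this scale understate changes of low genes. edgeR and DESeq2 1.42.0 on whole reads were alternatives at 72 h, where edgeR called 1395 genes higher and 1442 lower. The fit was tested on simulated data. No pair of libraries was identical.

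The 8 genes and the lists were chosen with earlier results of these data known. The text names every member and MYC. Of other listed genes it gives counts and values for the called genes with the smallest adjusted p, up to 6 per comparison; LBR, DHCR7 with siRNA, RNF139, SCAP, SCARB1 with PNA2, SOAT1 with siRNA, LPIN1 with siRNA, ABCG1 with siRNA, ACACA, COQ2 and ELOVL6 at 72 h were named after their values were seen. It also names the 5 genes most like the members in each table. Some genes of the lists are not reported here and were left out of the lists.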

Additional observations from a re-analysis of the deposited data

Results flagged for a closer look

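Of 40 sets of 1 gene in 1 group examined for a value far from the rest, 3 were marked, and chance marks about 1 in 20. FDFT1 at 48 h was 551 in PNA2 replicate 3, above the other 3 PNA2 libraries, which lay between 494 and 503. LSS at 48 h was 700.1 in PNA2 replicate 2, far below the other 3 PNA2 libraries, which lay between 1078 and 1102. INSIG1 at 48 h was 2205 in siRNA replicate 1, above the other 3 siRNA libraries, which lay between 2044 and 2055.

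For 2 genes every PNA2 library moved one way at 48 h and the other way at 72 h relative to the mean of its PBS libraries. How many of all genes tested did so was not counted, so the count is not read as a result about these genes. FDFT1 changed by -0.16 on the log2 scale at 48 h, which did not pass the test, and by 0.30 at 72 h. EBP changed by -0.46 at 48 h and by 0.55 at 72 h. The difference between the times was not tested, because the tables were made separately.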

How the results depend on the processing

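Over the 32 changes of the 8 genes there were 560 alternative values, of which 512 kept their side of the threshold, 46 lost a call and 2 gained one. In 0 of them did a change reverse while called in either setting. Changes that were not called did switch sign, such as FDFT1 in PNA2 against PBS libraries at 48 h (-0.21 to 0.04 over the alternatives). At 72 h the counts of 4 genes higher and 0 lower held in every alternative but quantile normalization, with 3 higher. For PNA2 against PBS at 48 h, the genes called higher became 0 with the replicate block and 0 within batch A, and those called lower became 0 without rescaling, 1 with the replicate block and 1 within batch A. For siRNA, 1 was higher without rescaling, and 0 were lower without rescaling, with quantile normalization, no filter, no batch term, the replicate block, batches aligned on controls, or batch A alone, and 0 to 2 when 1 library was left out. For PNA2 against siRNA, the genes higher became 0 without rescaling and 1 with no batch term, the replicate block or batch A alone, and those lower 1 without rescaling or with no filter; leaving out 1 library gave 1 to 2 higher and 1 to 3 lower.

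Over all genes, PNA2 against PBS at 48 h gave 2014 higher and 167 lower without rescaling, against 1173 and 1144, and 431 and 439 with the replicate block. siRNA gave 2124 and 74 without rescaling, against 1274 and 1148, 540 and 621 with no batch term, 572 and 397 with the replicate block, and 719 to 1460 and 487 to 1233 when 1 library was left out. PNA2 against siRNA gave 700 and 1085 without rescaling, against 1676 and 1674, and 849 and 984 with the replicate block. The block at 48 h used numbered libraries only, so it had fewer samples. Same-numbered libraries showed little joint deviation (r from -0.06 to 0.30 at 48 h and -0.04 to 0.11 at 72 h). The highest r, 0.30, was between PNA2 and PBS replicate 1 at 48 h. Batch means were not removed for the 48 h values, so there pairing and batch cannot be told apart. The numbers are not treated as pairs in the main fit. Unless stated, the cause was not tested. The unscaled 48 h table limits the calls of MVD, LSS and EBP most.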
